A study of Sus scrofa with 102 samples.

Results

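The expression of 42 genes for splicing factors and other RNA-binding proteins was described in *Longissimus dorsi*, the loin muscle, of 102 Iberian x Landrace backcross pigs. The genes were those whose symbol in the array annotation begins with SRSF, HNRNP, SF3, SNRP, PRPF, RBM, DDX, DHX, LSM, CPSF, PABP, PCBP, SRRM, CELF, MBNL or LARP; no probe in the table used here carries a THOC or U2AF symbol, and *DDX3X*, *DDX3Y* and *RBMX* were left out. They were 42 of the 2201 genes named by a probe with 1 symbol, and 49 of the 5449 probes tested. Per the study's methods the probes had been selected for variation between the arrays, so that all shares of probes given here are shares of a selected set, and a gene without a probe in the table may have been on the array. For the 7 genes with 2 probes, the probe with the higher mean was used. By role they comprised 6 SR and SR-related proteins, 4 hnRNP and poly(C) binding proteins, 10 proteins of spliceosome particles, 10 RNA helicases, 7 RBM proteins, 2 members of the CELF and MBNL families, 2 proteins of 3' end formation and the poly(A) tail, and 1 La-related protein.

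A newly made transcript is spliced by the spliceosome, which is assembled from small nuclear ribonucleoprotein particles on the splice sites and the branch point. SR proteins mostly promote the use of an exon and hnRNP proteins often oppose it, while CELF and MBNL proteins act against each other on many muscle transcripts during development. Helicases of the DDX and DHX families remodel RNA and its complexes at each of these steps, in export, in ribosome assembly and in the sensing of viral RNA. The porcine expression array gives 1 level per probe and does not read which exons a transcript contains, so splicing itself was not measured.

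The pigs were 55 females and 47 males of 171 to 184 days of age, with carcass weights of 43.6 to 97.8 kg, and all were fed without restriction. Slaughter took place in 3 batches, with 8 females and 6 males in the first, 36 and 34 in batch 2, and 11 and 7 in batch 3. Most pigs of batch 1 were younger than every pig of the other batches, so age and batch 1 can hardly be told apart. Mean carcass weights were 65.9, 73.3 and 64.6 kg in batches 1, 2 and 3. The labels name no treatment and no parents, so pigs were handled as independent although litters and sires may be shared. Values are log2 intensities, and a difference of 1 is a change of intensity by a factor of 2. Every difference below comes from 1 linear model with sex, slaughter batch and carcass weight, fitted with limma to all 5449 probes, and adjusted p values are Benjamini-Hochberg values over all of them. The number of pigs limits the precision, and in a muscle sample fewer cells of a type and less RNA per cell cannot be told apart. The integrity of RNA was followed with the actin control, as the intensity of its 5' probe minus that of its middle probe, which was -1.28 ± 0.30 (SD, n = 14) in batch 1, -0.80 ± 0.29 (n = 70) in batch 2 and -1.32 ± 0.43 (n = 18) in batch 3. The sex-specific probes of 4 arrays went against the label.

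The 42 genes covered a wide range of intensity. The brightest was *PCBP2*, a poly(C) binding protein that stabilizes transcripts, with a mean of 12.54 ± 0.55 (SD, n = 102), followed by *RBM26* at 10.29 ± 0.47 and *DDX39B* at 9.74 ± 0.81. The dimmest were *DDX58*, the sensor of viral RNA also called RIG-I, at 3.78 ± 0.67 and *MBNL3* at 3.84 ± 0.70. Both were among the members whose few high pigs set the range. In *DDX58*, 73 of 102 pigs lay in the lowest 25% of the range and 4 in the highest 25%, and in *MBNL3* 68 and 3. Intensities of different probes depend on the probes and are not compared as amounts of RNA.

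The spread between pigs differed widely among members, with SDs of 0.44 to 1.53. *HNRNPL*, which binds CA-rich stretches in introns, varied most, and its SD was above that of 99.0% of all probes. Its values ran from 5.49 through a median of 5.93 to 11.08, and 66 of 102 pigs lay in the lowest 25% of this range. The high pigs were in both sexes, and the highest value was 8.25 in batch 1, 11.08 in batch 2 and 7.99 in batch 3. *RBM42* (SD 1.04), *HNRNPUL1* (1.00), *DHX9* (0.98) and *DDX46* (0.93) followed. The narrowest spreads were those of *LSM3* (0.44), a ring protein of the U6 particle, *DDX56* (0.45), a nucleolar helicase, and *SRSF9* (0.45), and at most 2.29% of all probes had a smaller SD than any of them.

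Most members differed between slaughter batches, as did most of the probes tested. Whether the arrays were run by slaughter batch is not stated, so slaughter and array handling cannot be told apart. The F test over the 3 batches called 35 of 42 members, against 86.6% of all probes tested. Relative to batch 2, 19 members were lower and 11 higher in batch 1, where 41.5% of all probes were lower and 32.7% higher. In batch 3, 22 members were lower and 11 higher than in batch 2, against 45.3% and 36.2% of all probes. Both contrasts use the same batch 2 pigs. The median difference of the members was -0.17 in batch 1 and -0.53 in batch 3, and that of all probes -0.11 and -0.17. Quantile normalization brought the median of all probes to 0.01 and -0.01. Then 19 members were lower and 11 higher in batch 1, against 37.5% and 37.1% of all probes, and 20 were lower and 13 higher in batch 3, against 41.1% and 40.6%. Batches 1 and 3 differed from each other in 6 members, or 14.3%, against 16.8% of all probes. Batches 1 and 2, 3 and 2, and 1 and 3 overlapped in every member, and they were free of overlap in 0.0184%, 0.11% and 0.0184% of all probes. With age added to the model, 19 of the 19 members lower in batch 1 and 9 of the 11 higher were still called. Of all probes, 37.6% were then lower and 24.5% higher in batch 1.

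**Figure D1:**
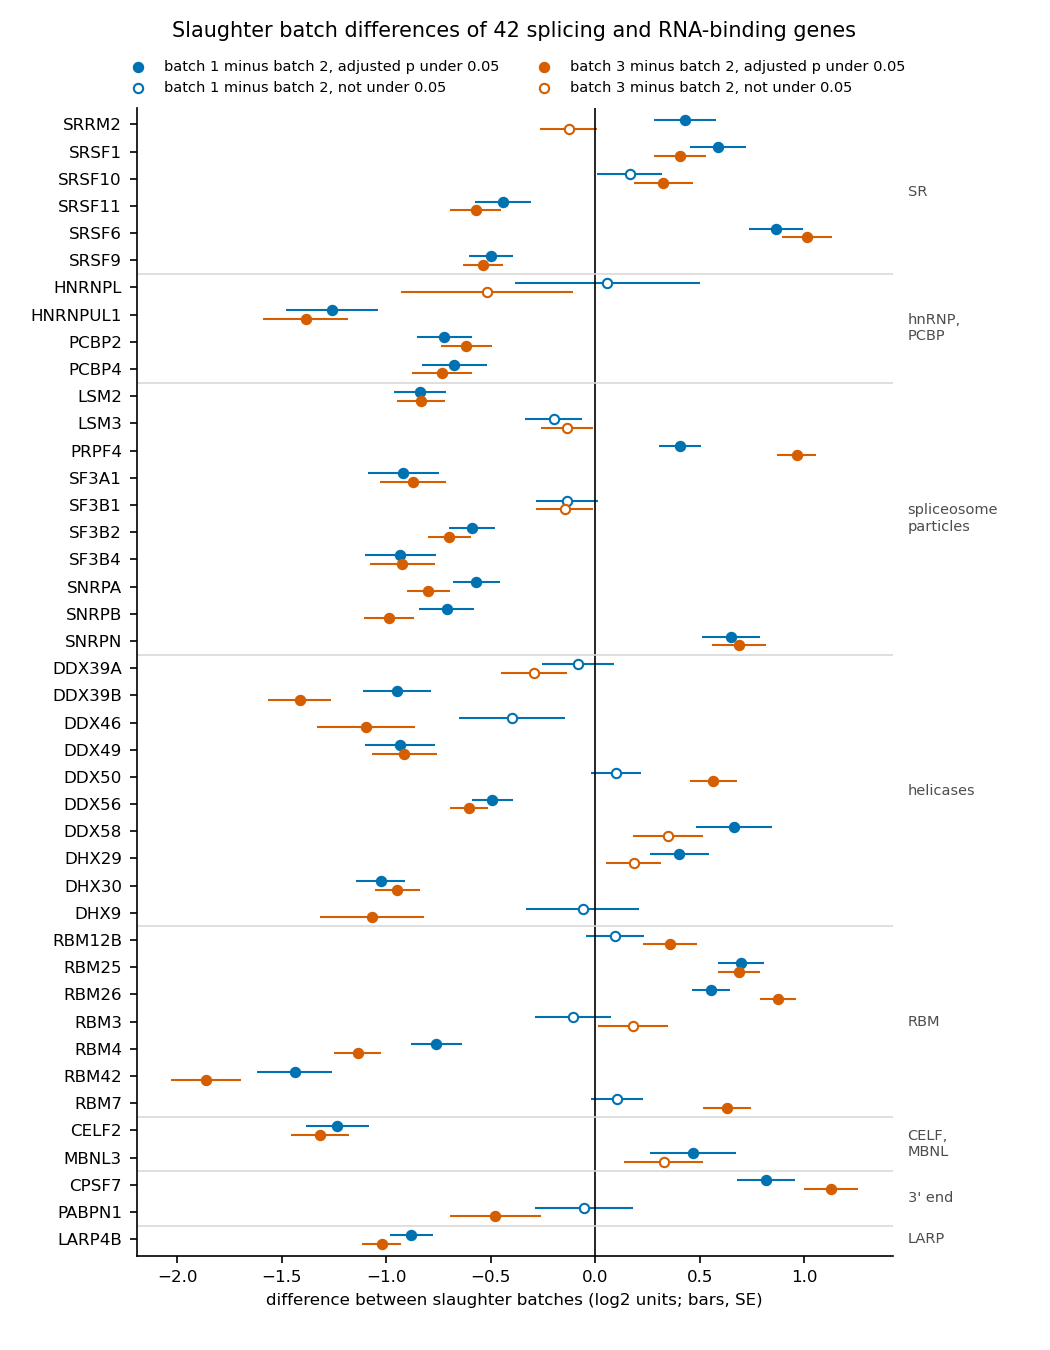
Each row is 1 of the 42 members, grouped by role, and the points give batch 1 minus batch 2 and batch 3 minus batch 2 in log2 units with their SE. Filled points passed an adjusted p of 0.05. Most helicases and spliceosome proteins lie left of 0, with *RBM42* farthest at -1.86, and *CPSF7*, *SRSF6*, *PRPF4* and *RBM26* lie right of 0.

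*RBM42*, an RNA-recognition-motif protein, showed the widest gap. It ranged from 5.36 to 8.66 in batch 2 (median 7.87), from 5.75 to 8.32 in batch 1 (6.08) and from 4.80 to 6.90 in batch 3 (5.65). Batch 3 was lower than batch 2 by 1.86 ± 0.17 (SE), a ratio of 0.275 (adjusted p = 7.55e-18), and the difference of batch 1 from batch 2 was -1.44 ± 0.18. The values overlapped through few pigs. A batch 1 female, pig 70, gave the 8.32, and the next value of that batch was 6.56. A batch 2 female, pig 99, gave the 5.36, where the next was 6.48. Pig 70 was also the highest of batch 1 for *DDX39B*, *HNRNPUL1* and *SF3B2*, and its actin difference was -0.62. Without these 2 arrays, left out after the data were seen, the same numbers of members were called in each direction for both contrasts.

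Among spliceosome particles, 6 of 10 members were lower than batch 2 in each of the other batches and 2 were higher. Of all probes, 41.5% were lower and 32.7% higher in batch 1, and 45.3% and 36.2% in batch 3. *LSM2*, of the ring that binds the end of U6 RNA, ranged from 6.48 to 8.47 in batch 2 (median 7.41), from 5.35 to 7.37 in batch 1 (6.59) and from 5.95 to 7.17 in batch 3 (6.56). *SNRPB*, an Sm protein at the core of most spliceosomal particles, had medians of 8.03, 8.84 and 7.76 in batches 1, 2 and 3, and ranged from 6.59 to 8.54 in batch 3 and from 7.66 to 9.53 in batch 2. Their differences from batch 2 were -0.84 ± 0.12 and -0.71 ± 0.13 in batch 1 and -0.83 ± 0.11 and -0.99 ± 0.12 in batch 3. *SF3A1*, *SF3B2* and *SF3B4* of the U2 particle and *SNRPA* of the U1 particle were lower too, while *SF3B1*, the U2 protein that holds the branch point, did not pass (F test, adjusted p = 0.471). *PRPF4*, of the U4/U6 particle, went the other way. Its values were 5.44 to 7.27 in batch 2 (median 6.43), 6.22 to 7.24 in batch 1 (6.81) and 6.82 to 8.04 in batch 3 (7.31), and it was 0.96 ± 0.09 higher in batch 3 (adjusted p = 1.53e-16). It was also 0.56 ± 0.12 higher in batch 3 than in batch 1 (adjusted p = 0.000429). *SNRPN*, an Sm protein related to *SNRPB*, was the other member of the group that was higher in both batches, by 0.65 ± 0.14 and 0.69 ± 0.13, and was named after its values were seen.

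Of the 10 helicases, 4 were lower and 2 higher in batch 1, against 41.5% and 32.7% of all probes. In batch 3, 6 were lower and 1 higher, against 45.3% and 36.2%. *DDX39B*, which acts in spliceosome assembly and in export, ranged from 8.68 to 11.13 in batch 2 (median 10.13), from 8.69 to 11.01 in batch 1 (9.01) and from 8.14 to 9.25 in batch 3 (8.66). It was lower by 1.41 ± 0.15 in batch 3 (adjusted p = 1.59e-14). The second, dimmer probe of *DDX39B* went the other way, at 1.66 ± 0.52 in batch 1 and 2.67 ± 0.48 in batch 3. *DDX39A*, a close relative of *DDX39B*, did not differ detectably between batches (F test, adjusted p = 0.204). *DHX30*, a helicase of mitochondrial RNA, had medians of 4.90, 5.82 and 4.98 in batches 1, 2 and 3, and its lowest batch 2 value was 4.82. It was -1.03 ± 0.12 from batch 2 in batch 1 and -0.95 ± 0.11 in batch 3. *DHX9* and *DDX46* were lower than batch 2 in batch 3, at -1.07 ± 0.25 and -1.10 ± 0.23, and in batch 1 they were at -0.06 ± 0.27 and -0.40 ± 0.25. The difference between batches 3 and 1 itself passed for *DHX9* (adjusted p = 0.0194), and for *DDX46* it did not (-0.70 ± 0.30, adjusted p = 0.0929). The *DDX46* probe was dim, as only 8.46% of all probes had a mean no higher than its 4.00.

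Members of the remaining groups moved in both directions. *CELF2*, which represses or promotes many muscle exons, ranged from 5.92 to 8.03 in batch 2 (median 6.79), from 4.66 to 6.43 in batch 1 (5.58) and from 4.33 to 6.36 in batch 3 (5.43). It was lower by 1.32 ± 0.14 in batch 3 (adjusted p = 9.91e-15). The other member of its group, *MBNL3*, was 0.47 ± 0.21 higher in batch 1 (adjusted p = 0.0343) and 0.33 ± 0.19 above batch 2 in batch 3 (adjusted p = 0.103). The *MBNL3* probe was dim, with a mean of 3.84, so these differences rest on low values. *LARP4B*, a cytoplasmic protein that binds transcripts and favours their stability, ranged from 7.10 to 8.88 in batch 2, from 6.53 to 7.40 in batch 1 and from 6.22 to 7.53 in batch 3, with the largest F of all members (76.5). *RBM4*, a splicing regulator, fell from a median of 9.25 in batch 2 to 8.34 and 8.13 in batches 1 and 3. In the hnRNP group *HNRNPUL1*, *PCBP2* and *PCBP4* were lower in both batches. *HNRNPUL1* had medians of 5.14, 6.69 and 5.17 and *PCBP2* of 12.19, 12.83 and 12.11 in batches 1, 2 and 3. For *PCBP2*, the difference of batch 3 was -0.62 ± 0.12, and after quantile normalization it was -0.16 (adjusted p = 0.241).

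Among members higher in batches 1 and 3, *CPSF7*, a subunit of a cleavage factor that selects polyadenylation sites, ranged from 2.71 to 5.36 in batch 2 (median 4.06), from 3.45 to 5.66 in batch 1 (4.99) and from 4.33 to 6.04 in batch 3 (5.18). It was 1.13 ± 0.13 higher in batch 3, a ratio of 2.19. The *CPSF7* probe was dim, as only 11.6% of all probes had a mean no higher than its 4.25. Many batch 2 pigs lay close to 4.06, so the ratio rests on low values. *SRSF6*, an SR protein that binds exonic enhancers, had medians of 7.15, 6.27 and 7.37 and *RBM26*, a zinc finger RNA-binding protein, of 10.59, 10.02 and 11.00 in batches 1, 2 and 3. *SRSF6* was 0.87 ± 0.13 and 1.01 ± 0.12 above batch 2, and *RBM26* 0.55 ± 0.09 and 0.87 ± 0.09. *RBM26* ranged from 10.29 to 11.30 in batch 3 and from 9.29 to 10.70 in batch 2. Of the SR proteins, *SRSF9* and *SRSF11* were lower in both batches, and *SRSF6* and the used probe of *SRSF1* higher. The second, dimmer probe of *SRSF1* went the other way, at -1.14 in batch 1 and -1.72 in batch 3. *SRSF9* had medians of 7.87, 8.21 and 7.76. *PABPN1*, which coats the growing poly(A) tail, was -0.48 ± 0.22 from batch 2 in batch 3 (adjusted p = 0.0374) and -0.05 ± 0.24 in batch 1, and its batch 3 difference did not pass after quantile normalization (-0.38, adjusted p = 0.0887).

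**Figure D2:**
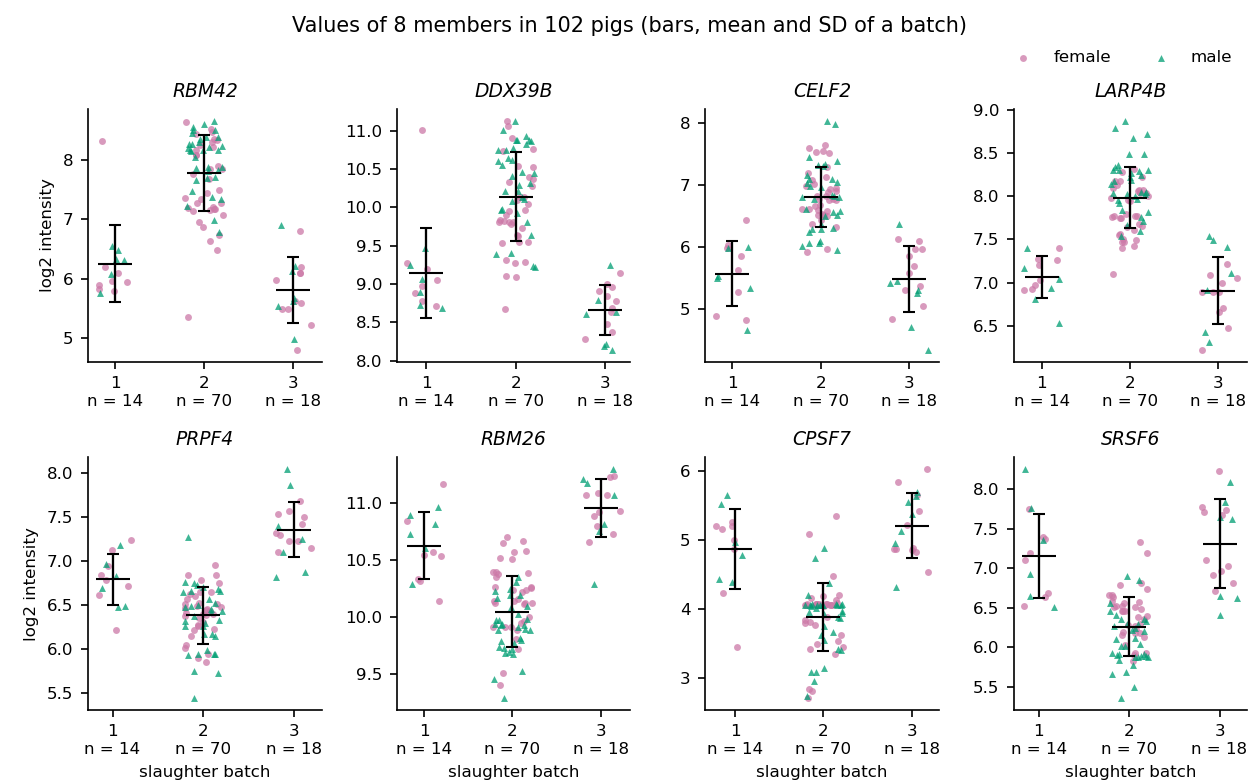
Points are pigs, females as circles and males as triangles, on the log2 intensity scale of each gene, and bars give the mean and SD of a batch. In the upper row batch 2 lies above the other batches, as in *RBM42* with medians of 6.08, 7.87 and 5.65, and in the lower row below them, as in *RBM26* with medians of 10.59, 10.02 and 11.00. The single high point of batch 1 in *RBM42* and *DDX39B* is pig 70.

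Many members also moved with the actin difference. In the model that held it beside sex, batch and weight, 14 members rose and 12 fell with it, against 27.6% and 25.2% of all probes, and 16 were called in neither direction. *CELF2* was among the latter, at 0.01 ± 0.06 per SD. The steepest, per SD of 0.40, were *HNRNPUL1* at 0.59 ± 0.07, *DDX49* at 0.40 ± 0.06 and *RBM42* at 0.39 ± 0.07 upward, and *SRSF10* at -0.30 ± 0.06 and *MBNL3* at -0.26 ± 0.08 downward. With the actin difference in the model the batch F test called 35 members, against 76.9% of all probes, and 32 of them were called without it as well. The difference of *PRPF4* between batches 1 and 2 was then 0.15 (adjusted p = 0.136). In the model without the actin difference, 19 of 21 measured genes on a list of other splicing factors were called for batch, against 86.6% of all probes. Of the 21, 12 were lower and 5 higher in batch 1, against 41.5% and 32.7% of all probes. In batch 3, 14 were lower and 5 higher, against 45.3% and 36.2%. Of the cell type marker lists, 1 of 13 general muscle markers, 5 of 7 slow fibre and 1 of 6 fast fibre markers had a probe in the table. The general muscle marker, *DES*, had medians of 12.1, 13.3 and 12.0 in batches 1, 2 and 3, with differences from batch 2 of -1.03 in batch 1 and -1.28 in batch 3, both called. The slow fibre markers gave a median summed level of 15.7, 15.6 and 15.6 in batches 1, 2 and 3, with a range of 13.2 to 16.7. Of the 5 slow fibre markers, 1 was called higher in batch 1 and 2 in batch 3, and none lower. The 1 fast fibre marker had medians of 12.2, 13.5 and 12.2 and was called lower in both batches, at -1.37 and -1.42. Lists of 4 adipocyte, 5 endothelial, 4 fibroblast and 2 macrophage markers had batch medians within 11.5 to 11.7, 9.68 to 10.3, 12.5 to 13.2 and 5.93 to 6.80. In batch 1, 3 of 4 fibroblast, 2 of 5 endothelial and 2 of 2 macrophage markers were called higher, and 1 fibroblast and 1 adipocyte marker lower. In batch 3, 2 fibroblast markers and 1 adipocyte marker were called higher, and 1 fibroblast, 2 endothelial and 2 adipocyte markers lower. No listed marker of lymphocytes or red blood cells had a probe in the selected table, so they were not analysed here. The part of RNA integrity or cell make-up in the batch differences was not tested.

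Sex differences were smaller and fewer. Of the 42 members, 9 were lower in females and 1 was higher, or 23.8% called, where 14.4% of all probes were lower, 11.7% higher and 26.1% called in either direction. The median difference, female minus male, was -0.12 over the members and -0.03 over all probes, and 31 of 42 members lay below 0, against 54.7% of all probes. After quantile normalization 6 members were lower and 2 higher, against 11.8% and 14.4% of all probes. By role, 3 of 6 SR proteins, 2 of 10 spliceosome proteins, 2 of 10 helicases, 1 of 7 RBM proteins and the La-related protein were lower. No member of the hnRNP, CELF and MBNL or 3' end groups passed.

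*SRSF9*, an SR protein of alternative splicing, ranged from 6.96 to 8.77 in females (median 8.02) and from 7.40 to 9.44 in males (8.30). Females were lower by 0.36 ± 0.07 (SE), a ratio of 0.780 (adjusted p = 6.84e-05). *SF3B4*, of the U2 particle, had the largest difference of the members, at -0.50 ± 0.11, a ratio of 0.706 (adjusted p = 0.00053), with 5.01 to 7.37 in females (5.66) and 5.32 to 8.35 in males (6.35). *DDX39A* ranged from 5.46 to 7.36 in females (6.29) and from 5.30 to 8.37 in males (6.70), a difference of -0.42 ± 0.12 (adjusted p = 0.00484). The sexes overlapped over most of the range in these 3 genes, and the upper end was held by males. *LARP4B* (-0.23 ± 0.07), *SRSF1* (-0.27 ± 0.09), *SRSF11* (-0.25 ± 0.09), *RBM7* (-0.22 ± 0.08), which belongs to a complex that brings transcripts to the nuclear exosome, and *DDX56* (-0.18 ± 0.07) passed with adjusted p values of 0.0081 to 0.0393. The second, dimmer probe of *DDX56* was at -0.07 ± 0.09 (adjusted p = 0.623). The remaining member lower in females, *SF3B2*, was named after its value was seen (-0.19 ± 0.08, adjusted p = 0.0456). *RBM26* was the member higher in females, with 9.41 to 11.24 (median 10.35) against 9.29 to 11.30 in males (9.99), a difference of 0.16 ± 0.06 (adjusted p = 0.0408).

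The sex differences were also taken within each batch. In batch 2, which holds 70 of the 102 pigs, all 10 had the sign of the whole set, and 13 members were called, against 32.4% of all probes. There, *SF3B4* was at -0.71, *DDX39A* at -0.67 and *SRSF9* at -0.47, and the medians of females and males were 6.05 and 6.86, 6.21 and 6.94, and 8.14 and 8.60. In batch 1, with 14 pigs, 5 of the 10 had the same sign, and *SF3B4* was at 0.07, *DDX39A* at -0.03 and *SRSF9* at -0.07. In batch 3, with 18 pigs, 8 of 10 had the same sign, at -0.17, 0.06 and -0.10 for the same genes. *SF3B4* varied little outside batch 2, from 5.32 to 6.10 in batch 1 and from 5.14 to 5.94 in batch 3. *RBM7* was at -0.39, -0.15 and -0.30 and *SRSF1* at -0.36, -0.32 and -0.07 in batches 1, 2 and 3. The sex by batch interaction called 0 members and 0% of all probes. At an unadjusted p of 0.05 it passed in 3 members, *SF3B4* (p = 0.0242), *RBM26* (p = 0.0334) and *DDX39A* (p = 0.0392), or 7.14%, and in 7.80% of all probes.

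**Figure D3:**
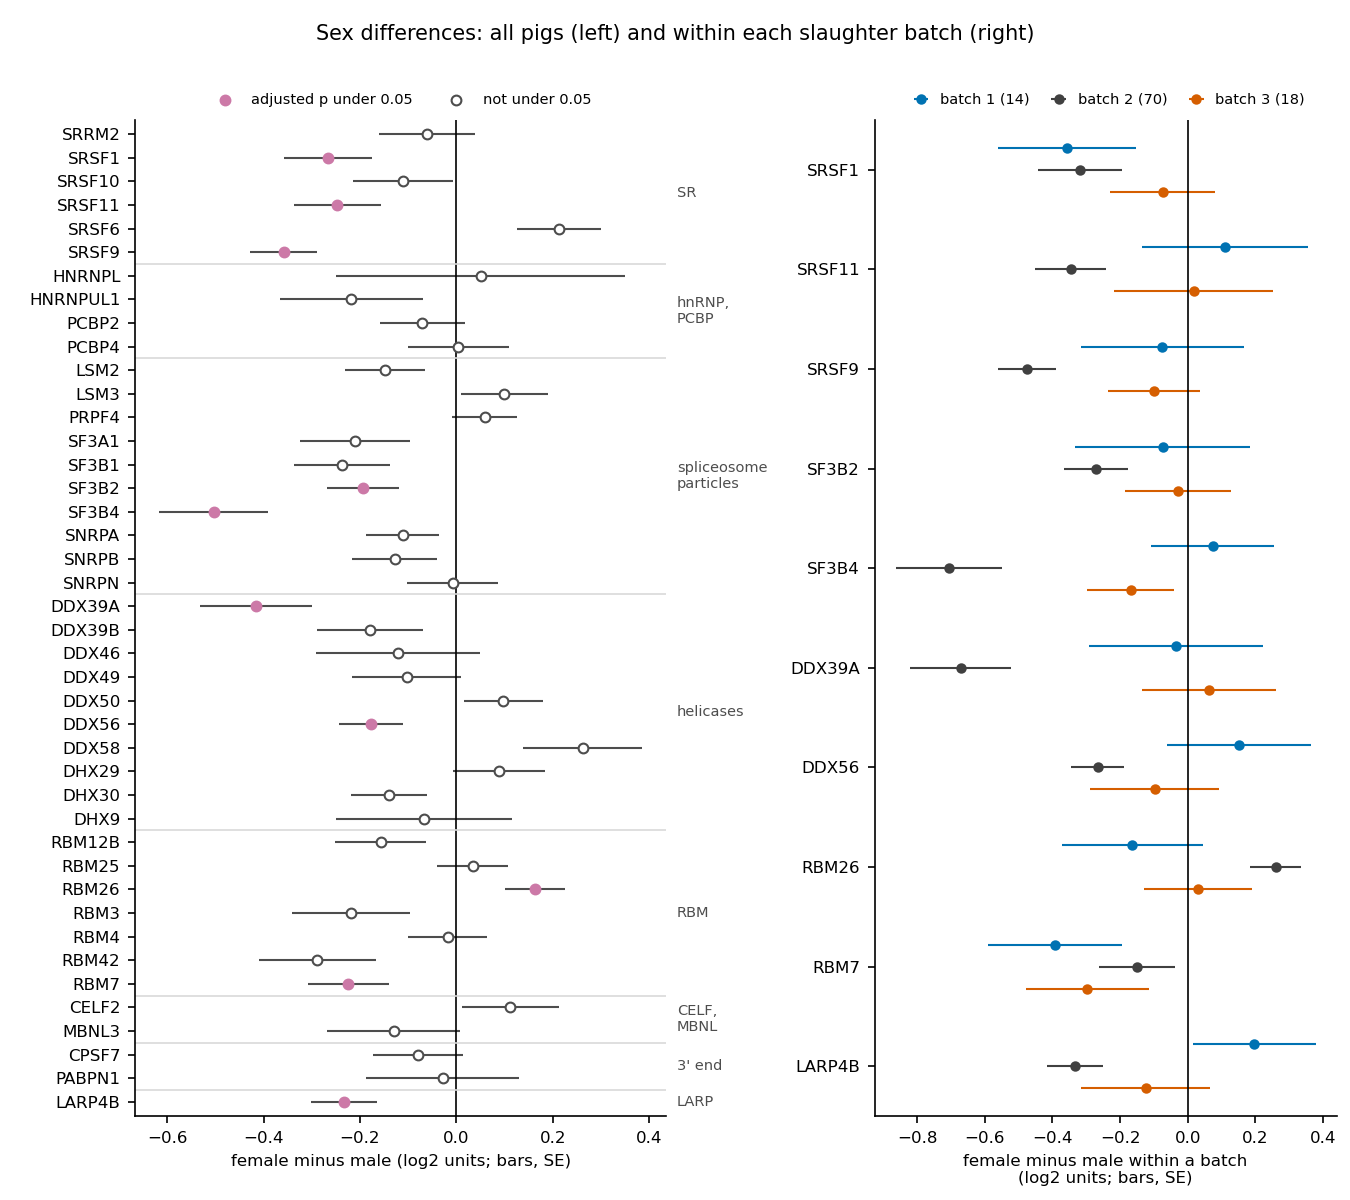
The left panel gives female minus male in log2 units with SE for the 42 members over 102 pigs, filled where the adjusted p was under 0.05, and the right panel gives the 10 called members within each slaughter batch, with its number of pigs in brackets. In the left panel 9 filled points lie left of 0 and *RBM26* right of it. In the right panel the batch 2 points of *SF3B4* (-0.71) and *DDX39A* (-0.67) lie farthest from 0, while the points of batches 1 and 3 lie closer to it for both.

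Carcass weight called no member and 0% of all probes in the limma fit, while 3 members, or 7.14%, and 10.8% of all probes passed at an unadjusted p of 0.05. *CPSF7*, a dim member, came closest, at -0.23 ± 0.05 per 10 kg (adjusted p = 0.0555), with slopes of -0.12, -0.29 and -0.17 within batches 1, 2 and 3. *DDX56* was at 0.08 ± 0.04 and *SRRM2*, a scaffold protein of nuclear speckles, at -0.11 ± 0.05 per 10 kg (adjusted p = 0.431 and 0.453). The *CPSF7* slope passed under 6 other settings, given in the closing section. The sex by weight interaction called 0 members and 0% of all probes, and 1 member, *DDX58*, passed unadjusted (p = 0.00436).

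After sex, batch and weight were taken out, the members did not move as 1 unit. Over the 861 pairs of members the median correlation was 0.01, and that of all pairs of probes -0.00. The middle of the distribution was close, from -0.16 to 0.17 between its quartiles for members and from -0.18 to 0.18 for all pairs, while 8.48% of member pairs and 5.49% of all pairs were over 0.5 in size. All pairs within the hnRNP group had correlations above 0, with a median of 0.08. The median was 0.04 among RBM proteins, 0.01 among helicases, 0.01 among SR proteins and -0.10 among spliceosome proteins, where it ran from -0.59 to 0.69.

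*RBM42*, *DDX49*, *HNRNPUL1* and *SF3B2* each had 27 of 41 other members, or 65.9%, moving with or against them. Of all probes, 68.8%, 64.2%, 65.3% and 64.7% did so, so these counts were near the share of the table. *RBM42* moved with 14 members of several roles, here called the *RBM42* group, *DDX39B*, *DDX49*, *DDX56*, *DHX30*, *HNRNPUL1*, *LARP4B*, *LSM2*, *PCBP4*, *RBM4*, *SF3A1*, *SF3B2*, *SF3B4*, *SNRPA* and *SNRPB*, at correlations of 0.52 to 0.85, and against 13, where 34.8% of all probes moved with it and 34% against it. All 14 were also lower than batch 2 in batch 1 and in batch 3, as were 88.7% of all probes that moved with *RBM42*, and 13 of the 14 rose with the actin difference, against 74% of those probes. Of the 13 that moved against it, 5 were higher in batch 1 and 8 in batch 3, 1 was lower in each, and 8 fell with the actin difference. Of all probes that moved against *RBM42*, 71.2% were higher in batch 1, 80.8% in batch 3, and 62.4% fell with the actin difference. The residuals carry no mean difference between batches, but differences between pigs within a batch, as in the actin difference, remain in them. Whether the correlations and the batch differences share a source was not tested.

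**Figure D4:**
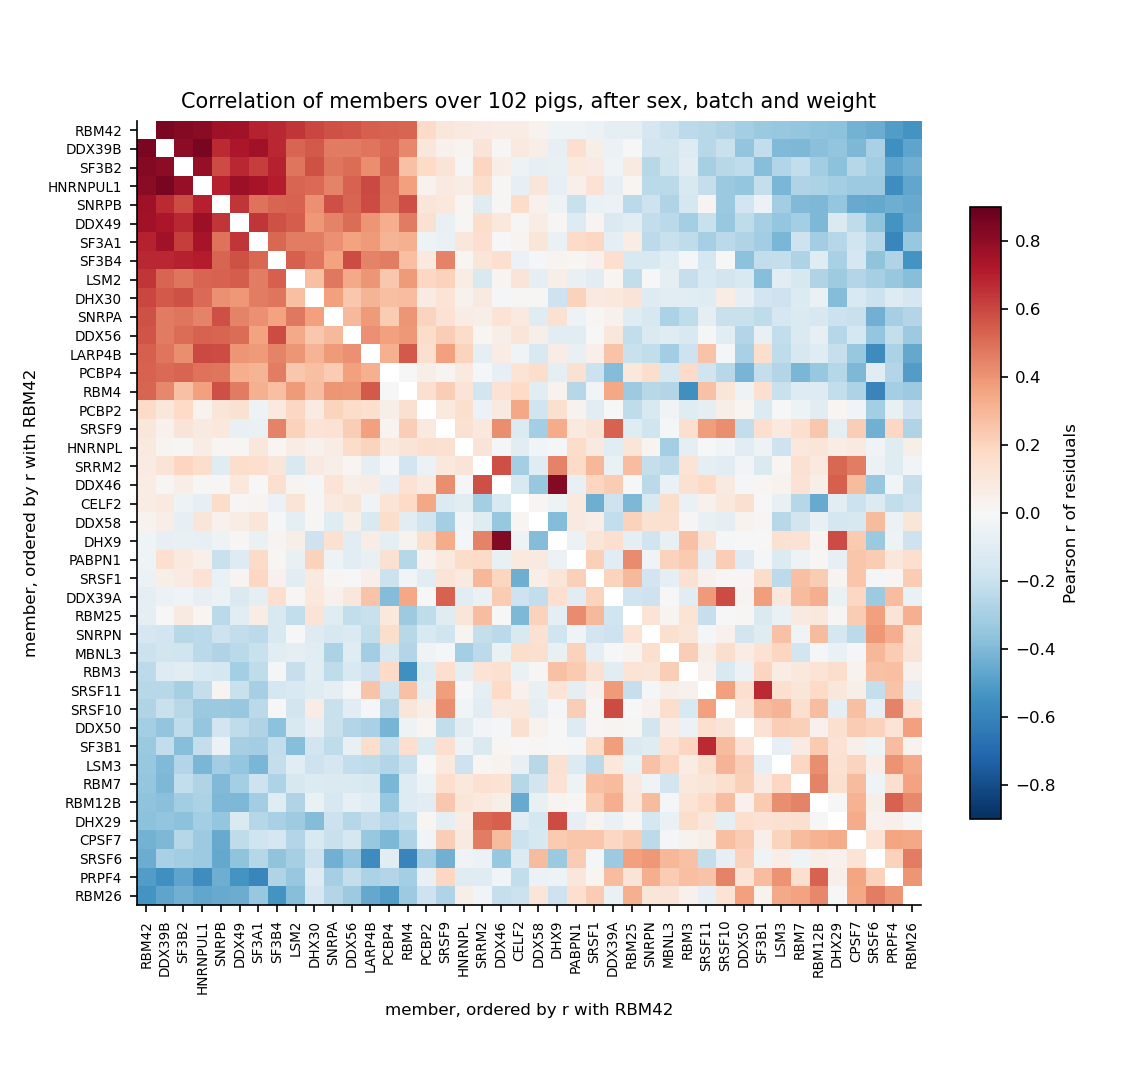
Each cell is the Pearson correlation of 2 members over 102 pigs, on residuals after sex, batch and weight, with members ordered by their correlation with *RBM42*. The upper left corner holds *RBM42* and the 14 members with correlations of 0.52 to 0.85 to it, *RBM26* and *PRPF4* stand at the opposite end, and *DHX9* with *DDX46* (0.83) forms a separate dark spot near the middle.

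The closest pair was *DDX39B* and *HNRNPUL1* (Pearson r = 0.85, Spearman rho = 0.84, permutation p = 1e-05 for both, the smallest that 100000 permutations can give). Without the 2 pigs farthest from the median of *DDX39B* it was 0.84, and within batches 1, 2 and 3 it was 0.85, 0.89 and 0.55. *DDX39B* and *RBM42* (r = 0.85, rho = 0.83), *RBM42* and *SF3B2* (0.82 and 0.82), *HNRNPUL1* and *RBM42* (0.81 and 0.84) and *DDX39B* and *SF3B2* (0.81 and 0.76) belonged to the same group, each with a permutation p of 1e-05, and their r was 0.76 to 0.81 without the 2 farthest pigs and 0.40 to 0.89 within batches. All pairs were taken from the 861 computed. With 2 principal components of the residuals of all probes in the model, the correlations of these 5 pairs were 0.05 to 0.39.

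*DDX46*, the helicase that loads the U2 particle, and *DHX9*, also called RNA helicase A, formed a pair outside the *RBM42* group. Their correlation was 0.83 (rho = 0.84, permutation p = 1e-05 for both), with 0.82 when the 2 farthest pigs were left out and 0.96, 0.83 and 0.62 within batches 1, 2 and 3. It was 0.83 with 2 principal components in the model, 0.83 with the actin difference and 0.83 after quantile normalization. Few other probes moved with either. For *DHX9*, 14.6% of the other members and 2.53% of all probes were called, and for *DDX46* 14.6% and 3.43%. *DHX29*, a helicase of translation initiation, had correlations of 0.59 and 0.54 with them, and *SRRM2* one of 0.58 with *DDX46*. *DHX9* ranged from 4.99 to 9.64 and *DDX46*, a dim member, from 2.20 to 5.84 over the 102 pigs. Other members with correlations over 0.5 away from the *RBM42* group were *SF3B1* with *SRSF11* (0.67), *DDX39A* with *SRSF10* (0.59) and *SRSF9* (0.53), *PRPF4* with *RBM12B* (0.53) and *DHX29* with *SRRM2* (0.52).

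The most negative correlations set *SRSF6* and *PRPF4* against members of the *RBM42* group. They were those of *RBM4* and *SRSF6* (r = -0.60, rho = -0.57), *PRPF4* and *SF3A1* (-0.59 and -0.61), *LARP4B* and *SRSF6* (-0.56 and -0.50) and *HNRNPUL1* and *PRPF4* (-0.56 and -0.58), each with a permutation p of 1e-05. Within batches they were -0.30 to -0.68, -0.36 to -0.65, -0.56 to -0.59 and -0.36 to -0.61. Without the 2 farthest pigs they were -0.51 to -0.60. With 2 principal components the pairs with *PRPF4* were at -0.12 and -0.24, and those with *SRSF6* at -0.31 and -0.43.

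The brightest member of each larger role group differed in how many genes moved with it. With *DDX39B*, 14 of 41 other members moved in the same direction and 11 against, beside 33.9% and 30.3% of all probes. With *RBM26*, 9 moved in the same direction and 15 against, beside 27.9% and 32% of all probes. With *SF3B1* the numbers were 4 and 5, beside 12% and 14.5%. *SRSF1* was called with 1 member, *CELF2* (r = -0.44, adjusted p = 0.00572), in the opposite direction and none in its own, beside 0.11% and 0.184% of all probes, and 2 and 8 members passed in these directions at an unadjusted p of 0.05. *PCBP2* was called with no member, beside 0.0184% of all probes in its direction and 0% against it, and 1 and 2 members passed at an unadjusted p of 0.05. Over all 42 members used in this way, the share of other members called was above that of all probes for 18 and below it for 23.

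For 7 members a second, dimmer probe was present, and in 5 the 2 probes followed each other. Their residuals correlated at 0.78 in *RBM42*, 0.77 in *SRSF6*, 0.68 in *SRSF10*, 0.54 in *CELF2* and 0.44 in *DDX56*, with rho of 0.80, 0.75, 0.69, 0.57 and 0.53 and permutation p values of 1e-05 or 2e-05 (7 pairs were compared, and the adjusted values were 2.33e-05 at most). Within the 3 batches they were 0.35 to 0.92, and without the 2 farthest pigs 0.50 to 0.76. The dimmer probe of *RBM42* was at -0.95 ± 0.17 in batch 1 and -1.04 ± 0.16 in batch 3 relative to batch 2, and that of *CELF2* at -1.37 ± 0.19 and -1.58 ± 0.18. Both had the sign of the probe used above.

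In *SRSF1*, the SR protein first purified as a splicing factor, the probes went opposite ways. Their residuals had a correlation of -0.42 (rho = -0.46, permutation p = 2e-05 and 1e-05), with -0.26, -0.45 and -0.37 within batches 1, 2 and 3 and -0.44 without the 2 farthest pigs. The brighter probe ranged from 7.98 to 10.82 in batch 2 (median 9.47), from 9.46 to 10.37 in batch 1 (9.89) and from 9.21 to 10.12 in batch 3 (9.80). The dimmer probe ranged from 6.79 to 9.85 in batch 2 (median 8.66), from 6.66 to 8.37 in batch 1 (7.37) and from 5.08 to 8.04 in batch 3 (7.06). The brighter probe was therefore 0.59 ± 0.14 and 0.40 ± 0.13 above batch 2 in batches 1 and 3, and the dimmer at -1.14 ± 0.22 and -1.72 ± 0.20, all 4 past the threshold. For sex the probes had the same sign, at -0.27 ± 0.09 and -0.39 ± 0.15 (adjusted p = 0.0233 and 0.0417).

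The second probe of *DDX39B* fell into separate groups of pigs. Its values ran from 2.16 to 8.55 with no pig between 3.99 and 4.91. There were 62 pigs below this gap and 40 above it, of which 8 were of 14 in batch 1, 20 of 70 in batch 2 and 12 of 18 in batch 3. No correlation with the brighter probe is given over such groups. The dimmer probe was 1.66 ± 0.52 and 2.67 ± 0.48 above batch 2 in batches 1 and 3 (adjusted p = 0.00313 and 5.62e-07), where the brighter was at -0.95 and -1.41. The batch differences of *SRSF1* and *DDX39B* thus have the sign of the probe used.

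**Figure D5:**
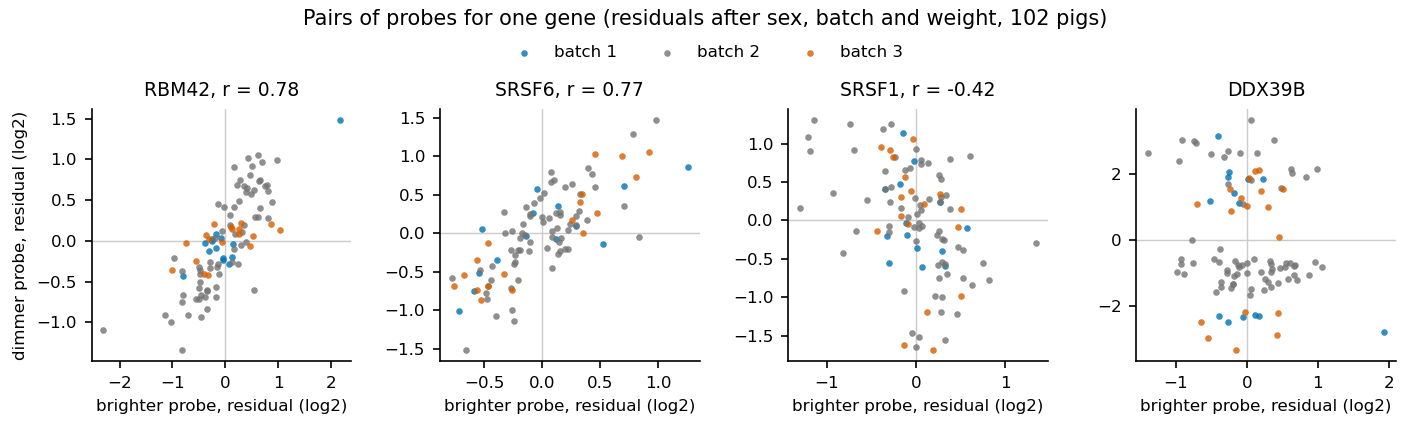
Each point is 1 of 102 pigs, coloured by slaughter batch, with the residual of the brighter probe of a gene on the horizontal axis and that of the dimmer probe on the vertical axis, both in log2 units. The probes of *RBM42* (r = 0.78) and *SRSF6* (0.77) rise together, those of *SRSF1* fall against each other (-0.42), and the dimmer probe of *DDX39B* splits the pigs into separate bands.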

How the data were processed

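Total RNA of *Longissimus dorsi* from 102 pigs was measured, each pig on an array of its own. Per the study's methods the authors used GCOS to generate expression data and AffyPLM to evaluate array quality. The deposited values are log2 intensities (0.80 to 16.00; array medians 6.19 to 6.69), for which the submitters' processing notes name GCRMA without a version. Per the methods the authors kept probes with over 20% of values beyond 1.5-fold of the median over the arrays, a rule that 5384 of the 5493 deposited probes meet, so shares of probes refer to a set chosen to vary. The 44 controls were left out. Probes were named through the platform annotation, and the gene identifiers of all 42 members were found in RefSeq. Sex, slaughter batch, age and carcass weight came from the sample labels.

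Sex, slaughter batch and carcass weight per 10 kg were fitted with lmFit and eBayes of limma 3.58.1, under R 4.3.3, two-sided, with a Benjamini-Hochberg adjusted p under 0.05 over 5449 probes. Pedigree was not used here. Correlations were computed on the residuals, with 100000 permutations of pigs in Python 3.11.15 with numpy 2.4.6. A linear model with a member's residual as a further effect gave the counts of genes moving with it. The model was tested on simulated data.

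Members named were the 12 with the largest batch F, up to 8 per direction for sex and the 3 smallest p for weight, the 5 largest and 3 smallest SD, the 6 most positive and 4 most negative correlations, the brightest of each larger role group, the 2 smallest batch p per group, and the probe pairs with the highest and lowest correlation. Others are said in the text to be named after their values were seen, or stand in full lists. Members, lists and tests were chosen with earlier results of these data known. Alternatives were quantile normalization, the actin difference, 2 principal components, age, array weights, a minimum mean of 4, all probes of a gene, no other covariates, batch as a random block, batch 2 alone, leaving out 4 arrays whose sex-specific probes go against the label and, added after the data were seen, leaving out 2 arrays.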

Additional observations from a re-analysis of the deposited data

How the results depend on the processing

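Of 506 values of single members or pairs recomputed under the alternatives, 480 kept their direction and side of the threshold, 15 lost the threshold, 10 gained it and 1 changed sign. Counts of members called for slaughter batch in either direction stayed within 1.5 times the reported ones under every alternative run. Members called for sex numbered 17, with 15 lower in females, when 2 principal components were added, where 39.1% of all probes were called and 22.6% lower in females. Members higher in females numbered 2 with quantile normalization, with the actin difference, with 2 principal components, with array weights, without the arrays whose sex-specific probes go against the label and in batch 2 only, and 0 without other covariates. Of all probes, 14.4%, 13.9%, 16.5%, 14.5%, 12.2%, 15% and 10.8% were higher in females under these settings, in the same order. Members called for carcass weight numbered 3 with 2 principal components (4.73% of all probes), 28 without other covariates (62.6%) and 1 with array weights (2.31%). They numbered 1 without the arrays against the label, with batch as a random block or without pigs 70 and 99 (chosen after seeing the data). In each of the last settings 0.0184% of all probes were called. *CPSF7* passed for weight in all the settings named here (adjusted p = 0.00103, 2.29e-05, 0.00135, 0.0328, 0.032 and 0.0473), and its adjusted p was 0.0505 to 0.189 in the other 5. Other members moving with the brightest member of a role group numbered 1 for *PCBP2* with quantile normalization, 1 for *RBM26* and 7 for *DDX39B* with 2 principal components, 15 and 18 for *SF3B1* with quantile normalization and in batch 2 only, and 4 for *SRSF1* with 2 principal components or quantile normalization. Shares of all probes are not given beside these counts, so they do not show a change particular to the members. The value that changed sign was *PABPN1*, batch 1 minus batch 2, at 0.0236 with quantile normalization (adjusted p = 0.929). The sex difference of *RBM7* did not pass with quantile normalization, without other covariates or in batch 2 only (adjusted p = 0.142 to 0.301), nor that of *SRSF1* under the first and second of these (0.123 and 0.0852) or *RBM26* without covariates (0.0643). Causes were not tested. No paired analysis was possible because each pig gave 1 array and no number is shared between groups. Pigs may be related, and batches 1 and 3 held 14 and 18 pigs, which limits what their within-batch differences can show.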

Other observations

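*RBM3*, a protein known to rise in the cold, was not called for batch (F test, adjusted p = 0.396), and its medians were 7.68, 7.71 and 8.00 in batches 1, 2 and 3, with an overall range of 6.25 to 9.74. Members higher in batch 3 than in batch 2 and not yet given for it were *RBM25* at 0.69 ± 0.10 (SE), *RBM7* at 0.63 ± 0.12, *DDX50* at 0.56 ± 0.11, *RBM12B* at 0.36 ± 0.13 and *SRSF10* at 0.33 ± 0.14. *RBM7* and *DDX50* were also higher in batch 3 than in batch 1, by 0.52 ± 0.15 and 0.47 ± 0.14 (adjusted p = 0.00834 and 0.0154), and *SRRM2* was lower there, at -0.56 ± 0.18 (adjusted p = 0.0193). *HNRNPL*, whose spread was the widest of the members, was called with 0 of 41 other members and with 0.0367% of all probes in the model that held its residual. In these limma fits, *RBM3*, *RBM25*, *DDX50*, *RBM12B* and *SRSF10* were singled out after their values were seen.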
